A study of Mus musculus with 12 samples.

Results

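The 7 genes described here handle iron in cells: the ferritin subunits Fth1 and Ftl1, the plasma iron carrier transferrin (Trf) and its receptor (Tfrc), the iron importer Slc11a2 (DMT1), the iron exporter ferroportin (Slc40a1) and the heme-degrading enzyme Hmox1. They were chosen by name, with earlier results of these data known, as 7 of the 32285 genes counted. They are given in each of the 12 cell types that the authors assigned and in each of 4 groups. Single cells came from hippocampi of female C57/BL6J mice labelled as 9 weeks old. Mice received cisplatin, a platinum chemotherapy drug, or PBS as the control injection, and in each case either no stimulation or 40 Hz sound and light flicker. Stimulation was given for 1 hour a day over 21 days starting with the first injection, and tissue was taken on day 22, after perfusion with cold buffer. The groups are named PBS nonstim and Cisplatin nonstim without stimulation, and PBS stim and Cisplatin stim with it, and have 3 libraries each. Replicate 1 of every group held 2 hippocampi of 1 animal, while replicates 2 and 3 held 4 hippocampi pooled from 2 animals. The labels give no cisplatin dose.

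Iron circulates bound to transferrin and enters cells when the transferrin receptor carries it into endosomes, from which DMT1 moves it to the cytosol. There it is used or stored inside ferritin, a shell built of heavy chains (Fth1), which oxidise the iron, and light chains (Ftl1), which help it to mineralise. Ferroportin is the known cellular iron exporter, and heme oxygenase 1 frees iron from heme. In brain, oligodendrocytes are known for a high iron and transferrin content, and the endothelium takes up transferrin-bound iron from the blood.

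Several of these messages carry iron-responsive elements, hairpins bound by iron regulatory proteins when iron is scarce. In the 5′ untranslated region such binding blocks translation, and in the 3′ untranslated region it protects the message from decay. The elements are shown because they set apart genes whose message level is known to follow iron from genes regulated mainly at translation, a step that a count of messages does not see. A search of GENCODE M21 transcripts (build GRCm38) for a bulged C, 5 bases and the loop CAGTGN between stems of 5 pairs, at least 4 of them Watson-Crick, found 7 distinct sites in 4 of the 7 genes. Each is printed 5′ to 3′ in 30 bases with the loop in capitals.
Fth1, 5′ untranslated region: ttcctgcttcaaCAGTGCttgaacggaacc
Ftl1, 5′ untranslated region: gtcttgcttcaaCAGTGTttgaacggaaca
Slc40a1, 5′ untranslated region: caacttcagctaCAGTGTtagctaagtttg
Tfrc, 3′ untranslated region: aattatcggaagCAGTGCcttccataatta
Tfrc, 3′ untranslated region: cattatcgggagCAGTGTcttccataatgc
Tfrc, 3′ untranslated region: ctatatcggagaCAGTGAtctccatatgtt
Tfrc, 3′ untranslated region: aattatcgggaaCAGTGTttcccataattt
The 4 Tfrc sites lie in 1 of its 3 coding transcripts, and the Ftl1 site in 1 of 2. The same pattern occurs in the 5′ untranslated region of 17 of 20899 genes (0.0813%) and in the 3′ untranslated region of 50 of 21022 genes (0.238%), with only the transcript's own strand searched. The site in Slc40a1 is in 1 of its 4 coding transcripts, and the one in Fth1 in 4 of 5. No match was found in Trf, Slc11a2 or Hmox1, which says only that this loop and stem pattern was not in their annotated untranslated regions. An element with another stem or loop would be missed, so the search does not show that these genes lack one.

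All coordinates are on GRCm38, with each gene's annotated start and end. Fth1 lies at chr19:9980598-9985098 on the forward strand, Ftl1 at chr7:45457944-45459884 on the reverse strand, Trf at chr9:103204001-103230444 on the reverse strand and Tfrc at chr16:32608920-32632794 on the forward strand. Slc11a2 lies at chr15:100387898-100425072 and Slc40a1 at chr1:45908068-45926523, both on the reverse strand, and Hmox1 at chr8:75093621-75100589 on the forward strand. Ftl1 is a member whose count is uncertain: 82.9% of its 31-base words also occur in other genes, chiefly Ftl1-ps1, a near copy on chromosome 13 that is in the matrix with 2911 UMIs against 194472 for Ftl1. For Trf the shared words (74.15%) come mainly from Gm20425, which is not among the counted genes, and only 3.68% are shared with genes that are counted. For Fth1 7.18% of words are shared, all with genes outside the matrix, and for Tfrc, Slc40a1 and Hmox1 none are.

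The 12 libraries held 19834 cells, between 611 and 2772 each, with 3964338 to 17656020 UMIs (unique molecular identifiers, 1 per captured message) a library and a median of 5581 UMIs a cell. Of the cell barcodes, 56 occur in more than 1 library, in 112 cells. Replicate 1 of every group has another prefix in its library name than replicates 2 and 3, and these are here called the first and second batch. Mitochondrial messages took a median of 10.7 to 17.6% of a cell's UMIs in first-batch libraries and 3.19 to 5.12% in second-batch ones. Ribosomal RNA-like transcripts (Gm42418, AY036118 and Lars2) took 1.87 to 3.65% of UMIs in the 4 second-batch PBS libraries, against 0.340 to 0.782% in the other 8. Within the second batch this share separates PBS from cisplatin libraries, so there it and the drug cannot be told apart. Over all cells the members ranged from 1069676 UMIs for Fth1 to 2190 for Slc11a2. In these summed cells, fewer messages per cell and a change in which cells make up a type cannot be told apart.

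Fth1 gave the most UMIs of the 7 genes in 10 of the 12 cell types, all but microglia and progenitors, and stood highest in oligodendrocytes, the myelin-forming cells. A 3′ library counts 1 tag a message, so levels are not divided by gene length. Levels are in CPM, the gene's UMIs scaled to a total of 1000000 UMIs of that cell type in a library. In oligodendrocytes Fth1 stood at 21893 CPM (median of 12 libraries, range 16670 to 26708), which is above neurons in 12 of 12 libraries. Neurons (7644 CPM), immune cells (6348 CPM) and choroid plexus cells (5999 CPM) followed, and neurons exceeded immune cells in only 6 of 12 libraries, so this pair has no order beyond the spread. Ependymal cells had 4663 CPM over 9 libraries and fibroblasts 4508 CPM over 3. Microglia (3482 CPM) exceeded astrocytes (3238 CPM) in 11 of 12 libraries. Pericytes (2343 CPM) and endothelial cells (2317 CPM, wall cells of the capillaries) did not separate. Oligodendrocyte precursor cells (OPCs) had only 1069 CPM, below the endothelium in 12 of 12 libraries, and progenitors had a median of 985 CPM, over 6 libraries in each of which they exceeded OPCs. Precursor and mature cells of the oligodendrocyte lineage thus stand far apart in this order.

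Ftl1 followed another order, led by the authors' immune type and microglia. It stood at 4660.4 CPM in immune cells (range 3813 to 5809) and at 3662 CPM in microglia (3107 to 4153), with immune cells above microglia in 11 of 12 libraries. The immune type also carried microglia and border macrophage markers. In its PBS nonstim libraries these summed to 5552 to 10700 and 2803 to 4835 CPM. The 6 immune cell markers summed to 228 to 7362 CPM there. The part of microglia and macrophages in the levels of this type was not tested, for Ftl1 or the other members. Choroid plexus cells had 1611 CPM, and no library of microglia fell below its choroid plexus value. Oligodendrocytes had 856 CPM of Ftl1 and OPCs 741 CPM, with oligodendrocytes higher in 11 of 12 libraries but by a far smaller margin than for the heavy chain. Astrocytes (447 CPM) and neurons (339 CPM) were lowest. The number of Fth1 UMIs for each Ftl1 UMI was therefore 25.4 in oligodendrocytes (19.8 to 30.4) and 19.4 in neurons (8.85 to 28.8). It was 1.03 in microglia (0.773 to 1.45), 1.29 in OPCs (0.973 to 3.69) and 1.43 in immune cells. Progenitors had the lowest median, 0.664 over 6 libraries, with a wide range (0.475 to 8.71). The neuron ratio sums clusters, described below, that differ in both genes. The ratio within a type rests on the counting of Ftl1, which its near copy makes uncertain, but both genes are read in the same cells.

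**Figure D1:**
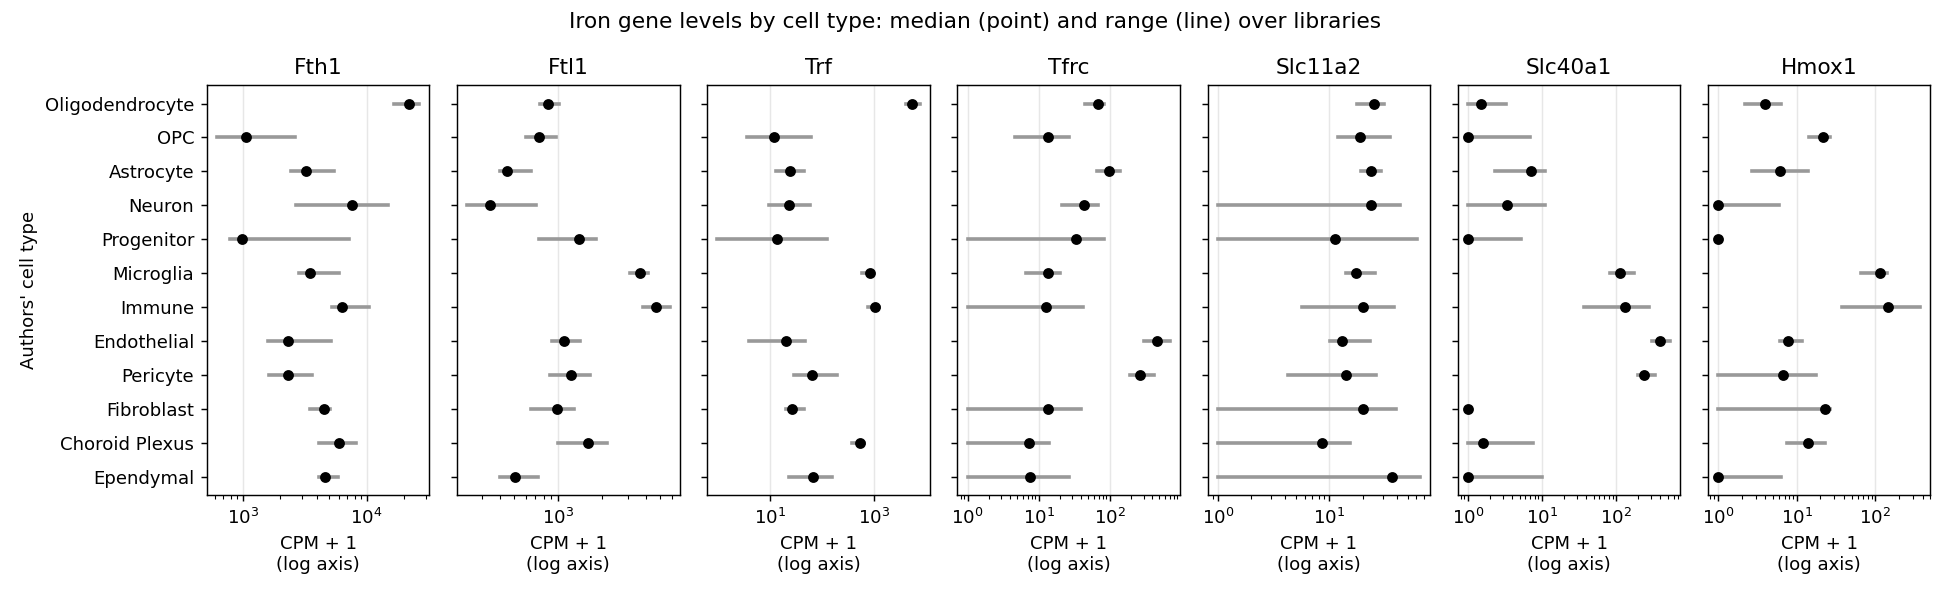
Levels of the 7 genes in the 12 cell types named by the authors. The x axes show CPM + 1 on log scales, points are medians and lines the range over libraries (3 to 12 a type). Fth1 and Trf lead in oligodendrocytes (21893 and 5295 CPM), Ftl1 and Hmox1 in immune cells and microglia, and Tfrc and Slc40a1 in endothelium and pericytes. The pericyte type also carried endothelium markers, and the immune type microglia and border macrophage markers.

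Among the authors' clusters, numbered from 0 by their size, Fth1 also varied within a type. Of the 4 oligodendrocyte clusters, cluster 8 held the highest median Fth1 (29165 CPM) and the highest Trf (7599.8 CPM), against 16656 and 4228 CPM in cluster 7. Neurons split further: cluster 10 had 15039 CPM of Fth1 and cluster 12 had 1462 CPM. Cells of neuron cluster 10 carried a median of 31.8% mitochondrial UMIs, against 13.9% in cluster 12 and 3.55% in cluster 19, whose Fth1 stood at 1579 CPM. The high rank of neurons in the order above therefore rests on cluster 10, and how far cell quality takes part in it was not tested. Median Ftl1 was 598, 95.9 and 505 CPM in clusters 10, 12 and 19. By these medians Fth1 exceeded Ftl1 least in cluster 19, so the neuron ratio does not hold alike in each cluster. In OPCs the 2 clusters had 1036 and 1669 CPM.

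Transferrin, the carrier, was highest in oligodendrocytes by a wide margin. Trf stood at 5295 CPM in oligodendrocytes (3963 to 7382), at 1036 CPM in immune cells, 841 CPM in microglia (576 to 955) and 521 CPM in choroid plexus cells, an epithelium that secretes cerebrospinal fluid proteins. Every one of these steps held in at least 11 of 12 libraries. All other types had medians of 65.2 CPM or less, and OPCs had 10.9 CPM. At least 1 Trf UMI was seen in 99.3% of oligodendrocytes, 88.5% of microglia, 75.96% of immune cells and 63.1% of choroid plexus cells, with medians of 7157, 6122.5, 1809 and 3725 UMIs a cell. Thinned to 1000 UMIs, the shares were 96.6, 48.0, 59.4 and 32.7%. Astrocytes, endothelial cells, OPCs, neurons and progenitors had shares of 3.12, 2.89, 2.86, 2.04 and 3.89% after thinning. The low levels of these 5 types are alike, and the part of free oligodendrocyte RNA in them was not tested.

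The transferrin receptor had another distribution, with its highest level at the blood vessel wall. Tfrc stood at 459.9 CPM in endothelial cells (304 to 703), at 262 CPM in pericytes and at 98.4 CPM in astrocytes. Oligodendrocytes had 66.8 CPM and neurons 43.1 CPM, each step again held in 10 or more of the 11 or 12 libraries compared. Microglia (12.6 CPM), OPCs (12.5 CPM) and immune cells (11.6 CPM) did not separate from each other, and choroid plexus cells had 6.25 CPM. In 66.9% of endothelial cells at least 1 Tfrc UMI was seen, against 6.40% of microglia, with medians of 4680 and 6122.5 UMIs a cell. After each cell was thinned to 1000 UMIs the shares were 33.1 and 1.45%. The pericyte type also carried endothelium markers. These 5 summed to 9964 to 10882 CPM in PBS nonstim pericytes, against 17615 to 18216 CPM in endothelial cells of that group. The 5 pericyte markers summed to 9746.5 to 13659 CPM in the same pericytes and 558 to 835 CPM in the same endothelial cells. The part of endothelial RNA in pericyte Tfrc was not tested.

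Slc11a2, the endosomal importer, was low in all types, and its medians spanned the smallest ratio of the 7 genes. Its medians ran from 7.59 CPM in choroid plexus cells to 35.4 CPM in ependymal cells, with 23.8 CPM in oligodendrocytes and 22.7 CPM in astrocytes. Most neighbours in this order did not separate: astrocytes exceeded neurons in 6 of 12 libraries, and OPCs exceeded microglia in 5 of 12. Only 2190 UMIs in 1920 cells support these values, which limits how fine a difference could be seen.

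Ferroportin, the exporter, stood above 100 CPM in 4 types. Slc40a1 stood at 396 CPM in endothelial cells (302 to 540.4), at 235 CPM in pericytes, at 131 CPM in immune cells and at 111 CPM in microglia (81.1 to 174). Endothelial cells exceeded pericytes in 11 of 11 libraries, and microglia exceeded astrocytes (6.13 CPM) in 12 of 12. Oligodendrocytes, with the most ferritin and transferrin message, had a median of 0.483 CPM. At least 1 UMI was seen in 69.5% of endothelial cells, 60.2% of pericytes and 47.4% of microglia, against 0.428% of oligodendrocytes, whose depth was greater than that of endothelial cells or microglia (a median of 7157 UMIs). Thinned to 1000 UMIs, the shares were 31.2, 19.1, 11.6 and 0.0215%. The pericyte type carried endothelium markers, as given above, and the part of endothelial RNA in its Slc40a1 level was not tested. In fibroblasts none of 72 cells had a UMI, which allows a share of up to 4.17% of cells with one.

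Hmox1, the heme-degrading enzyme, was highest in immune cells (144 CPM, 36.4 to 372) and microglia (113 CPM, 65.0 to 141), which did not separate beyond 8 of 12 libraries. The lowest immune value comes from PBS stim 1, with only 14 immune cells. Fibroblasts (21.7 CPM over 3 libraries), OPCs (20.4 CPM) and choroid plexus cells (13.1 CPM) followed. In the immune type, Hmox1 belonged mostly to cluster 15 (259 CPM), against 18.8 CPM in cluster 14, and Slc40a1 likewise (178 and 33.6 CPM). Neurons had 0.652% of cells with an Hmox1 UMI, against 30.97% of microglia, with medians of 3132 and 6122.5 UMIs a cell. Thinned to 1000 UMIs, the shares were 0.097 and 9.23%. None of 197 progenitors had an Hmox1 UMI, which allows up to 1.52% of such cells, a limit that covers counting error only.

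The UMI ratios set the types in an order that the single levels do not show. Progenitors had the lowest median (0.664 over 6 libraries). Microglia (1.03) and OPCs (1.29) come next in Fth1 for each Ftl1 UMI although their Fth1 levels differ. Oligodendrocytes and neurons lie at the other end, the neurons as a sum of clusters that differ in both genes.

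**Figure D2:**
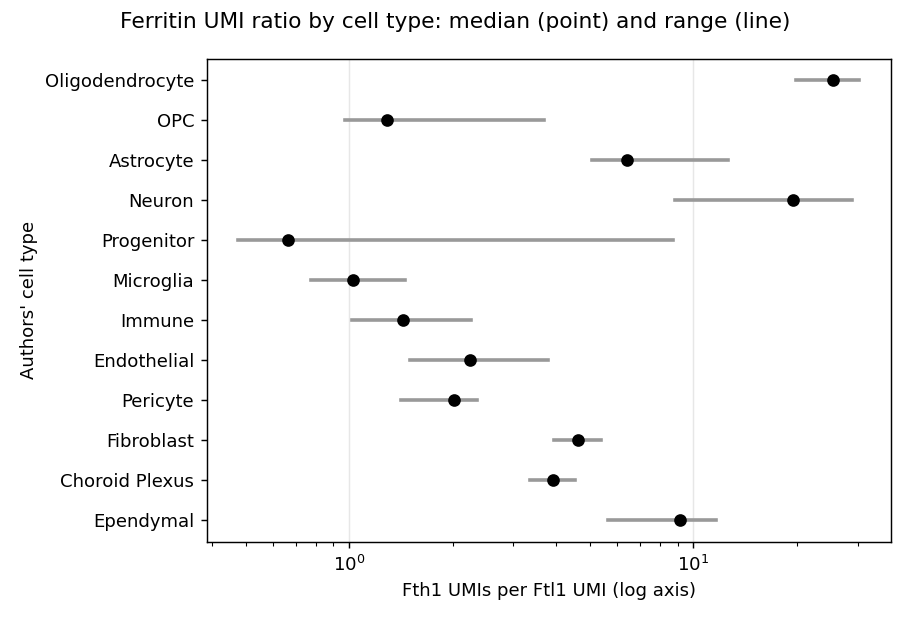
Fth1 UMIs for each Ftl1 UMI in the 12 types (x axis, log scale), with medians as points and the range over libraries as lines. Oligodendrocytes and neurons have medians of 25.4 and 19.4, against 1.03 in microglia, 1.29 in OPCs and 0.664 in progenitors (6 libraries). The neuron value sums clusters that differ in both genes.

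For each member, the genes whose mean log2(CPM + 1) over libraries followed it most closely across the 12 types were sought among 13406 genes. The points share libraries and depth, so these are descriptions. Fth1 was most like Ggct (r = 0.832) and Pdlim2 (r = 0.811), the weakest likeness of the 7. Ftl1 was most like Clta (r = 0.936) and Gdi2 (r = 0.935), Trf like Adssl1 (r = 0.933) and Depdc7 (r = 0.911), and Tfrc like Efr3b (r = 0.91) and Map4k2 (r = 0.905). Slc40a1 was closest to Pmaip1 (r = 0.98) and Gimap1 (r = 0.978), Slc11a2 to Tmem50b (r = 0.905) and Rab31 (r = 0.889), and Hmox1 to Stk10 (r = 0.947) and Man2b1 (r = 0.944).

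The first comparison asks what cisplatin changed in mice without stimulation. Ferritin heavy chain rose in microglia and OPCs and ferroportin fell in microglia in Cisplatin nonstim against PBS nonstim. Of the 63 pairs of a member and a testable type (9 types; ependymal cells, fibroblasts and progenitors had under 2 libraries with 10 cells in at least 1 group), 49 passed the filter on low counts and 14 did not. The test was edgeR's quasi-likelihood test on summed counts with Benjamini-Hochberg adjustment, called at an adjusted p under 0.05. Of the 49 pairs, 2 were called higher and 1 lower (6.12%), where 1.64% of all 69488 gene and type pairs were called (0.937% higher and 0.707% lower). The median log2 fold change was 0.24 over the 49 pairs and −0.00016 over all pairs. Under stimulation, in Cisplatin stim against PBS stim, 6 of 49 were called higher and 1 lower (14.3%), where 3.89% of all pairs were called (2.16% higher and 1.73% lower). There the medians were 0.26 and −0.0021. These 2 comparisons use separate libraries, and share 1 estimate of spread in the fit.

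Of these 10 calls, 9 ended when the batch term was left out of the fit, all but Fth1 in oligodendrocytes. With the ribosomal RNA-like share as a covariate, 3 remained called: Fth1 in OPCs, endothelial cells and oligodendrocytes. Without the 4 second-batch PBS libraries, an alternative chosen after seeing the data, 2 remained: Fth1 in OPCs and endothelial cells. With the second batch alone 7 of the 10 held. None of the 10 changed sign in any of 218 alternative fits.

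Fth1 had a log2 fold change above 0 in all 9 types in both comparisons, and 2 and 4 of the 9 passed the test. The changes ran from 0.23 to 1.505 without stimulation and from 0.34 to 1.92 under it. The types come from the same libraries, so their signs are not separate observations. The share of all genes with the same sign in every type was not computed. In microglia, PBS nonstim libraries 1, 2 and 3 had 3138, 3219 and 2885 CPM and Cisplatin nonstim libraries 4438, 4111 and 4328 CPM. All 3 cisplatin libraries lay above all 3 controls, and the means were 3081 ± 174 and 4292 ± 166 CPM (SD, n = 3). The log2 fold change was 0.47 ± 0.13 (SE; edgeR adjusted p = 0.0422, where 3.59% of microglial genes were called). The call ended in 7 of 12 fits that left out 1 library (adjusted p up to 0.189), among them each PBS nonstim library, and with cells over 10% mitochondrial UMIs left out (adjusted p = 0.0524).

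In microglia under stimulation, PBS stim libraries had 3472.5, 3097 and 2852 CPM of Fth1 and Cisplatin stim libraries 6016, 4731 and 3492 CPM. The groups did not overlap, though Cisplatin stim 3 lay just above PBS stim 1, and the first-batch library of each group was highest. Fth1 rose by a log2 fold change of 0.58 ± 0.13 (edgeR adjusted p = 0.00955, where 5.24% were called). The adjusted p rose past the threshold without PBS stim 3, Cisplatin stim 1 or Cisplatin stim 2 (up to 0.0804). The second batch alone gave 0.44 without stimulation and 0.46 with it. Within the 2 microglial clusters the rise was similar in size: in cluster 0 the medians were 3123 and 4202 CPM in PBS nonstim and Cisplatin nonstim and 3215 and 4811 CPM in PBS stim and Cisplatin stim, and in cluster 5 they were 3145, 4037, 2736 and 4217 CPM in the same order. The 6 oligodendrocyte markers summed to 231 to 836 CPM in PBS nonstim microglia and 292 to 1005 CPM in Cisplatin nonstim, with 2 of 5 tested called higher. The 5 choroid plexus markers summed to 16.3 to 124 and 256 to 1604 CPM in the same groups and the 5 pericyte markers to 3.20 to 7.19 and 4.83 to 39.7 CPM, each with the 1 tested called higher. Under stimulation, oligodendrocyte markers summed to 265 to 780 CPM in PBS stim and 344 to 1192 CPM in Cisplatin stim, with 1 of 5 called higher. The 6 astrocyte markers summed to 261 to 300.2 and 309 to 485 CPM in these groups, with 1 of 5 called higher, and the 6 immune cell markers to 299 to 315 and 292 to 446 CPM, with 1 of 2 called higher. Of the 6 microglia markers 1 was called lower, with sums of 16081 to 17289 and 12465 to 17447 CPM. The part of these in the Fth1 changes was not tested. Border macrophage markers summed to 9.80 CPM or less in every library of microglia, with Lyve1 at 0.

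In oligodendrocytes, the type with the most Fth1, PBS stim libraries had 16670, 18565 and 18650 CPM and Cisplatin stim libraries 25604, 26708 and 23794 CPM. The groups were far apart, with means of 17962 ± 1120 and 25369 ± 1472 CPM (SD, n = 3). The log2 fold change was 0.52 ± 0.10 (edgeR adjusted p = 0.00171), in a type where 14.5% of genes were called. It was called in all 12 fits without 1 library and in all 9 alternatives chosen at the start, with 0.47 in the second batch alone. Without the 4 second-batch PBS libraries, the change was 0.53 and the adjusted p 0.0525. Each of the 3 larger oligodendrocyte clusters showed the same order of medians, for example 23280 CPM in PBS stim and 32866 CPM in Cisplatin stim in cluster 8. The 6 oligodendrocyte markers themselves summed to 49504 to 57634 CPM in PBS stim and 40977 to 45667 CPM in Cisplatin stim, with 1 marker called higher and 1 lower. Of other lists, 1 of 6 astrocyte markers was called higher and 1 of 5 microglia markers lower.

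Without stimulation the oligodendrocyte values were nearer: 19052, 22707 and 19239 CPM in PBS nonstim and 21079, 25297 and 25717 CPM in Cisplatin nonstim. The groups overlapped in these levels, though within each batch every cisplatin library lay above every control. The log2 fold change of 0.28 ± 0.10 was not called (edgeR adjusted p = 0.115). The difference between the 2 effects, tested as an interaction, was 0.24 with a 95% interval of −0.065 to 0.55 (edgeR adjusted p = 0.766).

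In OPCs, Fth1 stood at 1165.5, 656 and 620.1 CPM in PBS nonstim and at 2409, 1103 and 926 CPM in Cisplatin nonstim. The groups overlap because the first-batch library is the highest of each, and within both batches every cisplatin library lay above every control. The log2 fold change was 0.84 ± 0.16 (edgeR adjusted p = 0.00667, where 0.299% of OPC genes were called), and 0.68 in the second batch alone, with an adjusted p of 0.0585. The call also ended without PBS nonstim 1, Cisplatin nonstim 1 or Cisplatin nonstim 2 (adjusted p up to 0.078), and it held at 1.12 without the second-batch PBS libraries. Under stimulation the change was 0.60 ± 0.17 and not called (edgeR adjusted p = 0.0932). Oligodendrocyte markers summed to 335 to 857 CPM in PBS nonstim OPCs and 429 to 1033 CPM in Cisplatin nonstim, with 0 of 3 called, and choroid plexus markers to 17.5 to 147 and 228 to 6001 CPM, with the 1 tested called higher. Astrocyte markers summed to 1008 to 1504 and 1198 to 1583 CPM, with 1 of 3 called higher, and 1 of 3 was also called higher under stimulation. Cluster 18, the OPC cluster with more Fth1 and a median of 16.3% mitochondrial UMIs, made up 14.9% of OPCs in PBS nonstim. It made up 22.4% in Cisplatin nonstim, 24.1% in PBS stim and 11.6% in Cisplatin stim. Within cluster 9 the Fth1 medians were 636 CPM in PBS nonstim and 1073 CPM in Cisplatin nonstim. The part of these markers and of cluster makeup in the Fth1 rise was not tested.

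In endothelial cells Fth1 rose under stimulation, from 2081, 2059 and 1738 CPM in PBS stim to 5171, 3083 and 2236 CPM in Cisplatin stim. The groups did not overlap, and the spread in the cisplatin group was wide (3497 ± 1511 CPM against 1959 ± 192, SD, n = 3), with its first-batch library highest. This was a log2 fold change of 0.79 ± 0.16 (edgeR adjusted p = 0.00852, where 2.53% were called). The second batch alone gave 0.46 with an adjusted p of 0.0796, and the call ended without PBS stim 1, PBS stim 3 or Cisplatin stim 2 (adjusted p up to 0.0805). Without stimulation the change was 0.53 ± 0.16 (edgeR adjusted p = 0.131). The 5 red blood cell markers summed to 1.54 to 55.8 CPM in PBS stim endothelium and 39.6 to 1287.5 CPM in Cisplatin stim, and to 8.62 to 11378 and 32.4 to 6807 CPM in PBS nonstim and Cisplatin nonstim, with none of the 4 tested called. The 1 neuron marker tested was called lower under stimulation. Border macrophage markers reached 182 CPM in a Cisplatin stim library of endothelium and at most 7.52 CPM in the other groups. The part of blood or macrophage RNA in these values was not tested.

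In neurons both ferritin chains rose under stimulation, in cells of uncertain quality. Fth1 stood at 8689, 2785 and 3563.5 CPM in PBS stim and at 11623, 14902 and 11197 CPM in Cisplatin stim, without overlap. Ftl1 stood at 302, 258 and 294 CPM in PBS stim and at 489, 705 and 632 CPM in Cisplatin stim, also without overlap. The log2 fold changes were 1.92 ± 0.49 for Fth1 (edgeR adjusted p = 0.0409) and 1.51 ± 0.28 for Ftl1 (edgeR adjusted p = 0.0113), where 2.27% of neuronal genes were called. Without stimulation they were 1.505 ± 0.48 and 0.90 ± 0.28 and not called (edgeR adjusted p = 0.221 and 0.207).

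Neuron cluster 10, the one rich in Fth1 and mitochondrial UMIs, made up 28.8% of neurons in PBS nonstim, 37.9% in PBS stim, 52.1% in Cisplatin nonstim and 74.8% in Cisplatin stim. Within cluster 10 the Fth1 medians were 9619, 10153, 16246 and 18204 CPM in that order of groups, and in cluster 12 they were 809, 1391, 1593 and 2927 CPM, the last over only 2 libraries. The 5 neuron markers summed to 6049 to 11280 CPM in PBS stim neurons and 2530 to 4476 CPM in Cisplatin stim. The 6 oligodendrocyte markers summed to 642 to 4604 CPM in PBS stim and 3118 to 5053 CPM in Cisplatin stim, with 2 of 3 tested called higher, and 3 of 6 astrocyte markers were higher as well. The part of cluster makeup, quality and RNA of other cells in the ferritin rise was not tested. The second batch alone gave 2.66 for Fth1 and 1.87 for Ftl1. With cells over 10% mitochondrial UMIs left out, too few neurons remained to test. Adjusting for the ribosomal RNA-like share gave 0.89 for Fth1 and 1.23 for Ftl1, with neither called, and the Fth1 call ended in 7 of 12 fits without 1 library (adjusted p up to 0.32). The Ftl1 call ended without PBS stim 2, PBS stim 3 or Cisplatin stim 2.

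**Figure D3:**
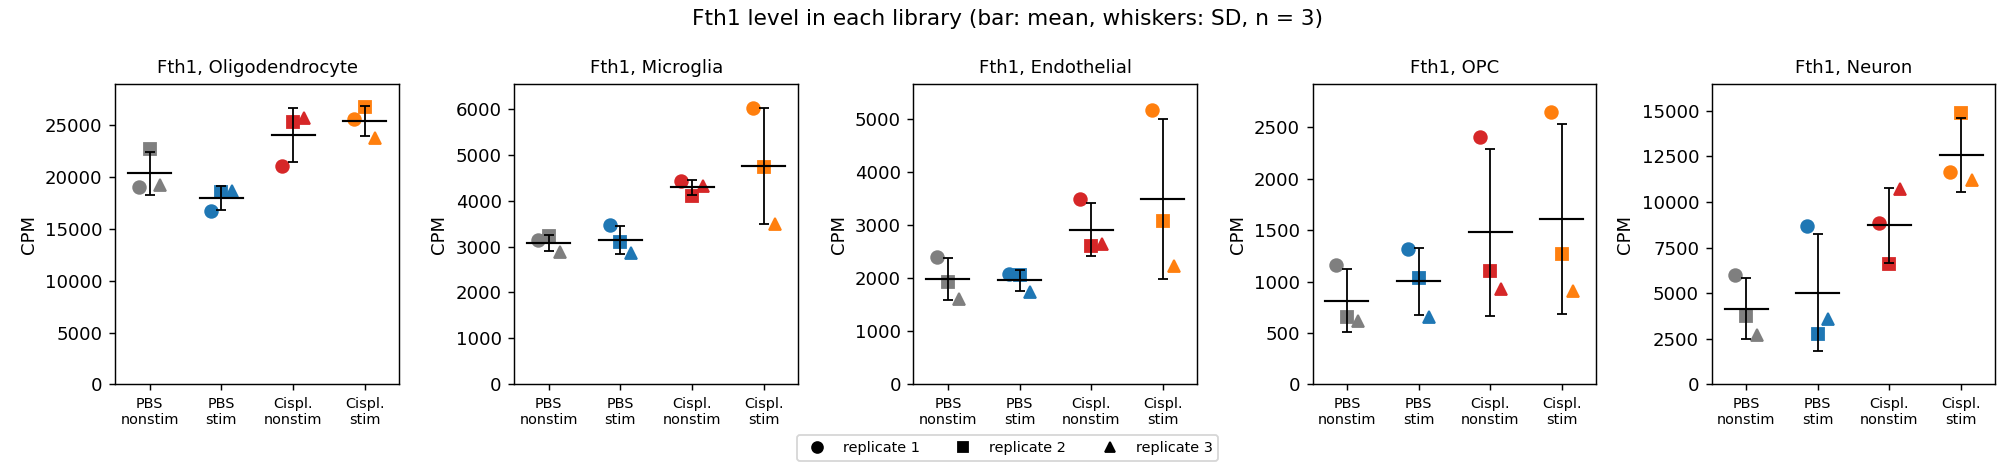
Fth1 level in CPM (y axes, from 0) in every library of 5 cell types, by group, with replicate 1 as circles, 2 as squares and 3 as triangles, and the mean and SD of 3 libraries in black. In microglia the Cisplatin nonstim libraries lie between 4111 and 4438 CPM and the PBS nonstim libraries between 2885 and 3219; in OPCs the replicate 1 libraries are the highest of every group.

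Outside neurons Ftl1 was not called in any type. With neurons included, its log2 fold changes ran from 0.044 to 0.90 without stimulation, and from −0.042 in microglia to 1.51 under it. Both highest values are those of neurons. In microglia Ftl1 changed by −0.042 under stimulation, with a 95% interval of −0.28 to 0.20, while Fth1 rose by 0.58 in the same libraries. In oligodendrocytes the Ftl1 change under stimulation was 0.092 (−0.14 to 0.33). In OPCs without stimulation it was 0.37 ± 0.14 (edgeR adjusted p = 0.339).

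**Figure D4:**
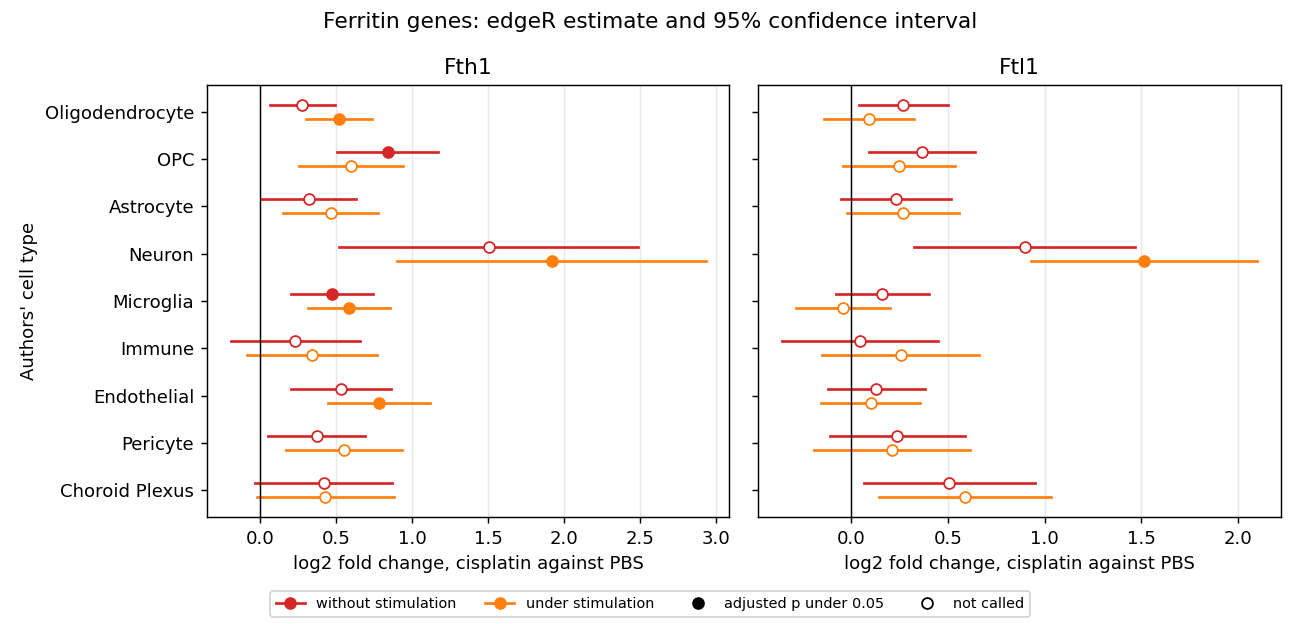
Log2 fold change of Fth1 and Ftl1, cisplatin against PBS (x axes), in 9 cell types without stimulation (red) and under it (orange), with the edgeR estimate and its 95% interval; filled points have an adjusted p under 0.05. All Fth1 points lie above 0, up to 1.92 in neurons, and the only filled Ftl1 point is that of neurons under stimulation (1.51).

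Of the genes of uptake, 1 call was made. Tfrc in oligodendrocytes stood at 43.4, 58.5 and 59.7 CPM in PBS stim and at 80.4, 75.7 and 73.8 CPM in Cisplatin stim. Every cisplatin library was above every control, with a log2 fold change of 0.52 ± 0.15 (edgeR adjusted p = 0.0247). It rests on 43 to 167 UMIs a library. The second batch alone gave 0.37 (adjusted p = 0.0941), and the call ended without any one of PBS stim 1, 2 or 3 or Cisplatin stim 1 or 2 (adjusted p up to 0.114). It also ended with cells over 10% mitochondrial UMIs left out, at a change of 0.45 (adjusted p = 0.0514). Without stimulation the values were 64.1 ± 15.9 and 68.4 ± 3.99 CPM (SD, n = 3), with a change of 0.13 ± 0.13 (edgeR adjusted p = 0.628). In endothelium, the type with the most Tfrc, the changes were −0.032 (−0.41 to 0.35) and 0.20 (−0.19 to 0.59), neither of them called.

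Trf was called in none of 9 types in either comparison, with 3 and 1 pairs at an unadjusted p under 0.05, a threshold that 14.5% and 17.1% of all gene and type pairs passed. In microglia it came close: PBS nonstim libraries had 812, 576 and 624 CPM and Cisplatin nonstim libraries 818, 889 and 955 CPM. The groups did not overlap, by a narrow margin set by PBS nonstim 1, and the log2 fold change was 0.42 ± 0.12 (edgeR adjusted p = 0.0564). Under stimulation the libraries had 865, 621 and 612 CPM against 894, 950.02 and 879 CPM, a change of 0.40 ± 0.12 (edgeR adjusted p = 0.064). In oligodendrocytes the changes were 0.33 ± 0.16 (edgeR adjusted p = 0.24) and −0.0023 ± 0.16 (edgeR adjusted p = 0.996).

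Ferroportin was the member that fell. Slc40a1 in microglia stood at 109.8, 169.8 and 174 CPM in PBS nonstim and at 81.1, 98.7 and 112 CPM in Cisplatin nonstim. The groups overlap slightly, since PBS nonstim 1 lies below Cisplatin nonstim 3, while within each batch all controls were higher. The log2 fold change was −0.65 ± 0.11 (edgeR adjusted p = 0.00241), and −0.75 in the second batch alone. Under stimulation the libraries had 123, 167 and 166 CPM in PBS stim against 95.2, 93.3 and 111 CPM in Cisplatin stim, without overlap. The log2 fold change was −0.64 ± 0.13 (edgeR adjusted p = 0.00434), and −0.71 in the second batch alone. The medians fell in both microglial clusters, from 152 to 85.6 CPM without stimulation and from 148 to 82.6 CPM under it in cluster 0, and from 222 to 112 CPM and 200.3 to 147 CPM in cluster 5.

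The first call ended only without Cisplatin nonstim 2 (adjusted p = 0.0586) and the second only without Cisplatin stim 2 (adjusted p = 0.0694) among the fits that left out 1 library. With the ribosomal RNA-like share as a covariate the changes were −0.31 and −0.39, and with the second-batch PBS libraries left out −0.31 and −0.51, none of them called. Slc40a1 had a log2 fold change below 0 in all 5 types tested in both comparisons, though these types also come from the same libraries. In endothelium it was −0.22 ± 0.14 and −0.28 ± 0.15 (edgeR adjusted p = 0.608 and 0.393). In immune cells it was −1.17 ± 0.36 without stimulation, from 259 ± 27.5 to 116 ± 15.8 CPM (SD, n = 3), without overlap, but not called (edgeR adjusted p = 0.627), and −0.16 ± 0.39 under it.

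**Figure D5:**
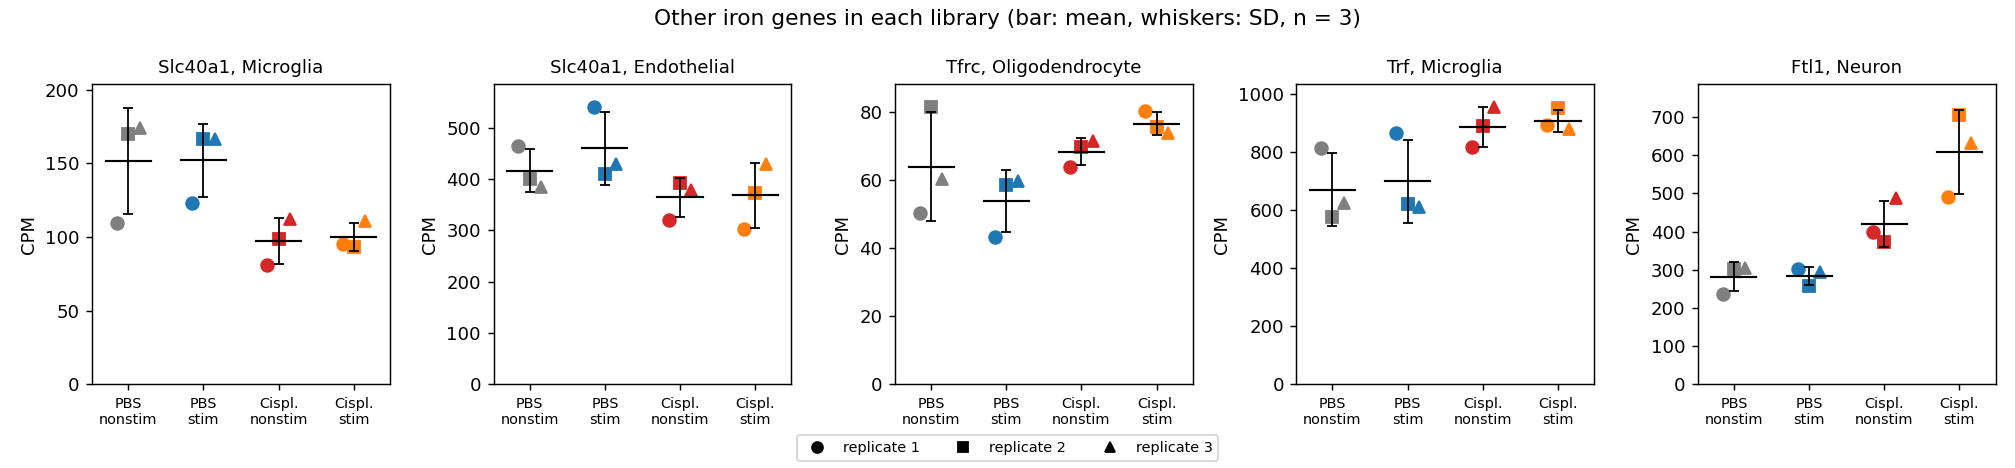
Slc40a1, Tfrc, Trf and Ftl1 in CPM (y axes, from 0) in every library, by group, for 5 pairs of a gene and a type, with replicates 1, 2 and 3 as circles, squares and triangles and the mean and SD of 3 libraries in black. Slc40a1 in microglia lies between 81.1 and 112 CPM in the cisplatin groups and between 109.8 and 174 CPM in the PBS groups.

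Slc11a2 and Hmox1 were called in no type. Slc11a2 was tested in 6 types, with changes from −0.74 to 0.36 without stimulation and from −1.09 to 0.88 under it, and 1 pair in each comparison at an unadjusted p under 0.05. Hmox1 was tested in 5 types, with 0 and 1 such pairs. Over all gene and type pairs the shares at that threshold were 14.5% and 17.1%. In microglia, where it is abundant enough to be measured, Hmox1 changed by 0.085 (95% interval −0.27 to 0.44) and −0.14 (−0.54 to 0.27). In immune cells under stimulation the libraries ranged from 36.4 to 141 CPM in PBS stim and from 112 to 372 CPM in Cisplatin stim, with a change of 1.13 ± 0.44 (edgeR adjusted p = 0.471). The lowest value is that of PBS stim 1, with only 14 immune cells and 27455 UMIs in them. Cluster 15, the immune cluster richer in Hmox1, made up 51.1% of immune cells in PBS stim and 46.0% in Cisplatin stim.

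The next comparisons ask what stimulation changed within each drug arm. They share their groups with those above. No member was called in Cisplatin stim against Cisplatin nonstim (0 of 49, background 0.196%, or 0.145% higher and 0.0504% lower), in PBS stim against PBS nonstim (0 of 49, background 0.0%) or in the interaction of drug and stimulation (0 of 49, background 0.0245%, or 0.0158% higher and 0.00863% lower) by edgeR with Benjamini-Hochberg adjustment. At an unadjusted p under 0.05 there were 5, 1 and 0 pairs of the 49, where 6.66%, 2.87% and 4.88% of all pairs passed, and DESeq2 called 0 in each. Fth1 in oligodendrocytes changed by 0.065 (95% interval −0.15 to 0.28) with stimulation in cisplatin mice and by −0.18 (−0.39 to 0.04) in PBS mice. Fth1 in microglia changed by 0.14 (−0.13 to 0.40) and 0.024 (−0.24 to 0.29), and Slc40a1 in microglia had an interaction of 0.015 (−0.34 to 0.37).

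Of the 5 pairs at an unadjusted p under 0.05 in cisplatin mice, 4 are Trf, all lower with stimulation. In oligodendrocytes the libraries had 5046, 6521 and 7382 CPM in Cisplatin nonstim and 3963, 5633 and 5542 CPM in Cisplatin stim. The groups overlapped, with a change of −0.34 ± 0.16 (edgeR adjusted p = 0.427). The others were astrocytes (−1.0001 ± 0.27), endothelial cells (−1.15 ± 0.42) and OPCs (−1.78 ± 0.63), 3 types with low Trf, and none was called (edgeR adjusted p = 0.26, 0.524 and 0.738). In microglia, Trf changed by 0.036 (−0.22 to 0.29). The remaining pair was Ftl1 in neurons.

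Other genes were taken from 8 lists of 102 genes. Of these, 88 passed the filter in at least 1 type, in 528 gene and type pairs. The lists cover the transferrin cycle, ferritin handling, iron export, iron sensing, mitochondrial iron and heme. They also cover lipid peroxidation with ferroptosis defence (among them Alox5, Gpx4, Slc3a2, Slc7a11 and Lpcat3) and Nrf2 targets (among them Cat, Gclm and Nqo1). Not every listed gene therefore handles iron. Without stimulation 3 of 528 were called higher and 2 lower (0.947%, against 1.64% of all genes), with a median log2 fold change of 0.053. Under stimulation 13 were higher and 5 lower (3.41%, against 3.89%), with a median of 0.078. Both shares are near or below the background. Of the 5 calls without stimulation, Id1 alone held without the batch term, and none held with the ribosomal RNA-like covariate or without the second-batch PBS libraries. Of the 18 under stimulation, 9 held without the batch term, 3 with the covariate (Alox5 in microglia, Cat and Gclm in oligodendrocytes) and none without those PBS libraries. None of the 23 changed sign in 503 alternative fits.

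In microglia, Alox5, a lipoxygenase that oxidises fatty acids, rose in both comparisons. It went from 16.9 ± 5.25 to 30.5 ± 1.12 CPM without stimulation and from 13.5 ± 2.89 to 46.4 ± 5.77 CPM under it (SD, n = 3). The log2 fold changes were 0.94 ± 0.17 and 1.75 ± 0.20 (edgeR adjusted p = 0.00379 and 1.29e-05). Slc25a37 (mitoferrin 1), which carries iron into mitochondria, fell by 0.65 and by 0.88 (edgeR adjusted p = 0.00876 and 0.00239), from 69.1 to 44.9 and from 73.0 to 38.2 CPM. Under stimulation the lipocalin receptor Slc22a17 (0.71), the heme-hemopexin receptor Lrp1 (0.46) and the iron-sulfur cluster gene Isca1 (0.50) rose, and Smad7, an inhibitor of BMP signalling, fell by 0.46 (edgeR adjusted p from 0.0107 to 0.0447). Under stimulation Alox5 and Slc25a37 were called in all 12 fits without 1 library. Without stimulation the Alox5 call ended without Cisplatin nonstim 2, and that of Slc25a37 without replicate 2 or 3 of either group. Slc22a17 was called in 10 of 12 such fits, Lrp1 in 8, Smad7 in 6 and Isca1 in 5, and each of these 4 calls ended without Cisplatin stim 2.

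In oligodendrocytes without stimulation, Id1, a target of BMP signalling, rose by 1.90 ± 0.37 from 5.66 to 19.5 CPM and the amino acid transporter chain Slc3a2 by 0.48 ± 0.11, and catalase (Cat) fell by 0.49 (edgeR adjusted p = 0.00552, 0.0168 and 0.0354). Under stimulation Gpx4, the enzyme that reduces lipid peroxides, rose from 832 ± 35.1 to 1131 ± 77.7 CPM, a change of 0.46 ± 0.099 (edgeR adjusted p = 0.00306). Gclm (0.45), Nqo1 (1.65) and Hfe (4.26) rose as well, although Hfe went from only 0.253 to 7.31 CPM, as did the iron-sulfur cluster genes Iscu (0.56) and Isca1 (0.62). Cat fell by 0.77 and App, the amyloid precursor protein gene, by 0.44. Isca1 and Nqo1 were named after their values were seen. The adjusted p-values of these 7 edgeR calls lay between 0.00195 and 0.0393. Id1 without stimulation and Gpx4, Gclm, Hfe, Cat and App under it were called in all 12 fits without 1 library. Without stimulation, Slc3a2 was called in 9 of 12, lost without PBS nonstim 2 or 3 or Cisplatin nonstim 3, and Cat in 5 of 12, lost without any 1 library of its groups and without PBS stim 2. Under stimulation, Iscu was called in 10, Isca1 in 8 and Nqo1 in 5 of 12, and each ended without PBS stim 3.

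In astrocytes under stimulation, the cystine transporter Slc7a11 fell by 0.69, from 322 ± 9.62 to 201 ± 51.1 CPM, and the lysophospholipid acyltransferase Lpcat3 rose by 0.63 (edgeR adjusted p = 0.0326 and 0.0233). Each was called in 8 of 12 fits without 1 library, and ended without any 1 of the PBS stim libraries. In neurons under stimulation, Gpx4 rose by 2.00 ± 0.39 and the iron chaperone partner Bola2 by 1.37 ± 0.31 (edgeR adjusted p = 0.0141 and 0.0227), in the same libraries whose cluster makeup shifted. Both calls ended without PBS stim 2, PBS stim 3 or Cisplatin stim 2. No gene of the 8 lists was called in the comparisons of stimulation or in the interaction by edgeR. At the same threshold DESeq2 called 1 in cisplatin mice and 1 in PBS mice.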

How the data were processed

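The authors deposited whole-number UMI counts of 10x 3′ libraries, summed here per library and MajorCellType, the authors' cell type label, used as deposited. Cell Ranger 5.0.0, Scanpy and mm10 are named, without roles, per the submitters' processing notes; no source used here names the annotation release. The authors' per-cell total, a signal deposited with decimals, and their per-gene score enter no test; the summed counts were a median of 1.02 times that total. The members and gene lists were chosen with earlier results of these data known. Mitochondrial shares were summed anew from 13 genes, and 24.5% of cells exceed 10%. No doublet call was added.

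Libraries with under 10 cells of a type were left out of it, so in pericytes 1 PBS stim library is missing and that group has 2. edgeR 4.0.16 (R 4.3.3) fitted the 4 groups and the batch to all 12 libraries, with TMM and filterByExpr; Benjamini-Hochberg adjustment ran over all genes of a type and comparison. Fold changes come from this fit and CPM from plain totals. The script was tested on simulated data. Alternatives included DESeq2 1.42.0. Of listed genes, at most 4 calls a direction, type and comparison are named, those of smallest p (all where a comparison has under 5). Isca1 and Nqo1 in oligodendrocytes were added after their values were seen. All 7 members are named, and the 2 genes most like each among those with at least 10 CPM in a type.

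Replicate numbers pair no animals. Deviations of same-numbered libraries correlated at 0.334, 0.0853 and 0.106 between the cisplatin groups and at 0.249, 0.0816 and 0.0225 between PBS nonstim and Cisplatin nonstim (medians over types). Between the PBS groups they were 0.404, 0.210 and 0.153, all above 0.1. Batch was not removed from these deviations, and replicate 1 is the first batch in every group. The correlations therefore cannot tell a shared source from the batch. A replicate block left 0 member calls in the comparison of the PBS groups. The labels do not say that libraries of 1 group were prepared independently beyond their animals, so p-values measure the spread between these libraries.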

Additional observations from a re-analysis of the deposited data

How the results depend on the processing

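Of 218 alternative fits of the 10 member calls, 155 kept direction and call, 63 kept direction but lost the call and 0 reversed. Of 503 of the 23 listed gene calls, these counts were 374, 129 and 0. Calls among the 7 genes without stimulation (3) became 7 with DESeq2's Wald test, 8 without a filter on low counts, 0 without the batch term, 10 in the second batch alone, 1 with the ribosomal RNA-like share as covariate, 1 without the second-batch PBS libraries (chosen after seeing the data), and 0 to 6 with 1 library left out (0 without Cisplatin nonstim 2). Under stimulation (7) they became 1 without the batch term, 4 with cells over 10% mitochondrial left out, 3 with the covariate, 2 without those PBS libraries, and 1 to 8 with 1 library left out (2 without PBS stim 3, 1 without Cisplatin stim 2). Among the listed genes without stimulation (5) they became 9 with DESeq2, 15 unfiltered, 1 without the batch term and 58 in the second batch alone. They became 0 with the covariate, 2 without those PBS libraries and 2 to 28 with 1 library left out. Under stimulation (18) they became 9 without the batch term, 54 in the second batch alone, 5 with the covariate, 7 without those PBS libraries and 9 to 27 with 1 library left out. For Cisplatin stim against Cisplatin nonstim (0) members had 2 calls unfiltered; listed genes had 1 with DESeq2, 5 unfiltered, 1 without those PBS libraries and 0 to 1 with 1 library left out. For PBS stim against PBS nonstim (0) listed genes had 1 with DESeq2, 2 unfiltered and 1 with the covariate, and for the interaction (0) 3 unfiltered. The causes were not tested. Neurons could not be tested with cells over 10% mitochondrial left out. At this depth 14 of 63 member and type pairs did not pass the filter on low counts.

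With the replicate number as a block, member calls were 3 and 7 in the cisplatin comparisons. Of these, 3 and 6 were shared with the fit without the block, and the listed genes gave 4 and 19. Fth1 in neurons was not called under the block (1.91, adjusted p = 0.0797). No other named member call was lost under the block, Cat in oligodendrocytes without stimulation and Isca1 in microglia under it were lost among the listed genes, and the comparisons of stimulation had 0 calls.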
